A study of Mus musculus with 11 samples.

Results

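Genes known for the maintenance of spermatogonial stem cells were followed along mouse spermatogenesis, 8 in number: Gfra1, Ret, Etv5, Zbtb16, Sall4, Egr4, Tcl1 and Uchl1. They were taken by symbol from a table of unique molecular identifier (UMI) counts, which has 1 row for each of them among the 20389 rows. The cells were single testis cells of 3 untreated mice that carry a Dazl-GFP reporter, sorted live and GFP-positive into plates and sequenced by SORT-Seq, which tags the 3' end of each polyadenylated RNA with a UMI. Genotype beyond the reporter, strain and age are not given in the sources used here, and every group carries the reporter. Mouse 1 was processed with CEL-Seq1 and mice 2 and 3 with CEL-Seq2, so protocol and mouse cannot be told apart. The replicate is the mouse (n = 3), and the groups compared are stages of germ cells within each mouse.

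Spermatogonial stem cells are the few spermatogonia that renew themselves and also supply all later germ cells. In the textbook account, Sertoli cells, the somatic supporting cells of the tubule, secrete the ligand GDNF, which binds the membrane-anchored co-receptor GFRA1 and activates the receptor tyrosine kinase RET. Signals from RET pass through the SRC-family, PI3K-AKT and MAP kinase pathways to transcription factors, ETV5 and EGR4 among them, while ZBTB16 (also called PLZF) and SALL4 are zinc-finger factors of undifferentiated spermatogonia. TCL1 is a co-activator of AKT kinases, and UCHL1 (PGP9.5) is a ubiquitin hydrolase used as a marker of spermatogonia.

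Of 1920 wells, 1448 held at least 1000 UMIs and 1237 of these fell in 12 stages, from 473, 291 and 473 wells of mice 1, 2 and 3. The stages are clusters made without any of the 8 genes and ordered by diffusion pseudotime, so the numbers are an order and not a time. By markers that exclude the 8 genes, stage 1 was undifferentiated spermatogonia-like (72 wells) and stages 2 to 4 differentiating spermatogonia-like. Stages 6 to 8 were leptotene/zygotene-like and stages 9 to 12 pachytene-like. Stage 5 stayed unnamed, as its leading genes held the preleptotene markers Stra8 and Prdm9 and equally many leptotene/zygotene markers, Mei1 and Tex15. The median depth per well ranged from 6810 UMIs at stage 7 to 96447 at stage 12, and a sum over 1 mouse and stage held between 123561 and 4832388 UMIs. A Dazl UMI was seen in 99.76% of the staged wells, and an eGFP UMI in 4.61%. The 12 markers of undifferentiated spermatogonia summed to 546 to 807 CPM (UMIs per 1000000 UMIs of the sum) in the 3 mice at stage 1, 181 to 307 at stage 2 and 7.93 to 12.7 at stage 12. Such markers also served to name stage 1, so these sums are no independent check of its name or of the order. The 8 Sertoli markers, of which 7 had UMIs at stage 1 and Amh had none there, summed to 107 to 146 CPM at stage 1, 24.3 to 89.4 at stage 2, 213 to 704 at stage 5 and 2.12 to 8.92 at stage 12. Their part in the differences below was not tested. Levels are shares of each sum's UMIs, so a level does not depend on how many wells a stage has.

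Most of the genes lie on the minus strand of mouse build GRCm38: Gfra1 at chr19:58235604-58455909, Ret at chr6:118151745-118197718, Etv5 at chr16:22381309-22439719, Zbtb16 at chr9:48654297-48836222, Sall4 at chr2:168748332-168767943, Egr4 at chr6:85511121-85513589 and Tcl1 at chr12:105216750-105222793. Uchl1 lies on the plus strand at chr5:66676091-66687234. All are annotated as protein coding. Gfra1, Sall4 and Uchl1 each overlap 1 gene on the opposite strand (Gm16277, Gm14261 and Uchl1os), and as the use of strand in the counting is not given in the sources used here, reads of the pairs cannot be told apart.

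Upstream sequence is shown for 3 genes whose mean levels followed different courses: Egr4, called lower at stages 2 and 3, Tcl1, with 1 UMI at stage 2 and 24 at stage 9, and Uchl1, for which no fall was called before stage 3. Bases come from RefSeq promoters of GRCm38.p6 and run 5' to 3' on the strand of the gene, up to the annotated gene start. Capitals mark matches to 6 short motifs on either strand, spelled out below.
Egr4, chr6:85513590-85513839, minus strand: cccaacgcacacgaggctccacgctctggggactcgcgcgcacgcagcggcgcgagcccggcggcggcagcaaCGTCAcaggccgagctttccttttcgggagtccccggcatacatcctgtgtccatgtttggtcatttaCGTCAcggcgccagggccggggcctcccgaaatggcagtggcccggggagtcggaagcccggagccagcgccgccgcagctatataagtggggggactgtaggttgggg
Tcl1, chr12:105222794-105222987, minus strand: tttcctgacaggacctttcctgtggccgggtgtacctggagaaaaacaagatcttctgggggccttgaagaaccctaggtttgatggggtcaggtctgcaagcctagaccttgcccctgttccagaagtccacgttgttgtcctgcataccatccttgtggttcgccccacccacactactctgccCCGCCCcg
Uchl1, chr5:66675871-66676090, plus strand: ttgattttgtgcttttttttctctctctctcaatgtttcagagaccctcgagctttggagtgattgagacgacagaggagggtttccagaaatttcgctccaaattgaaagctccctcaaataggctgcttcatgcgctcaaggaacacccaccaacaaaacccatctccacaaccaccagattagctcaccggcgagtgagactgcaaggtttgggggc
Egr4 held TGACG, the core of cAMP response elements, at 2 places, a motif added after the letters had been read and found in 17.8% of the 32851 RefSeq windows of 250 bases before a start. Tcl1 held the GC box GGGCGG at 2 places in its 250 bases, of which the one nearer to the start lies inside the annotated gene and is not shown, against 32.7% of windows with the motif. None of the 3 held CCGGAAG (an ETS site, 6.91% of windows), GCGNGGGCG (an EGR site, 4.70%), CCAAT (33.8%) or TATAAA (12.4%). Only these exact letters were searched. The Egr4 sequence holds tatataag near the gene start, a close variant of TATAAA that was not counted. GC content of the 250 bases was 68% for Egr4, 57.6% for Tcl1 and 48.8% for Uchl1. These matches are a description of letters and were not tied to binding.

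The main pattern was a lower level at stage 2 than at stage 1, from undifferentiated to differentiating spermatogonia-like cells, in all 3 mice for every one of the genes except Uchl1. The share of all genes lower in all 3 mice at this step is not given, so this count alone does not set the genes apart. Egr4, Sall4 and Uchl1 fell further from stage 2 to stage 3, and Sall4 and Uchl1 from stage 4 to stage 5. Tests used edgeR's quasi-likelihood model on sums per mouse and stage with the mouse as a block, and a gene was called at a Benjamini-Hochberg adjusted p under 0.05 over 5268 genes. Fold changes from this model carry TMM scaling factors, which CPM values do not. These factors were 0.99 to 1.12 at stage 1 and 0.67 to 0.86 at stage 12. A log2 fold change between these stages is therefore higher than the ratio of the CPM values gives. Of the 8 genes, 7 passed the filter on low counts. Gfra1 did not, and Ret, Etv5 and Tcl1 passed through stage 1 alone, so their calls against stage 1 follow in part from the filter, no p is given for them, and counts of calls are a description. Of the 4 genes that also passed without stage 1, Egr4, Zbtb16 and Sall4 were called lower at stage 2 and Uchl1 was not. At stage 2 against stage 1, 6 of the 7 were called lower, where 13.1% of all tested genes were called lower. At stage 12 against stage 1 all 7 were called lower, beside 39.6% of tested genes. Over the 11 later stages, 76 of 77 such contrasts were called lower, the exception being Uchl1 at stage 2, while the share of all tested genes called lower against stage 1 was 13.1%, 18.8%, 20.6%, 27.4%, 32%, 31.6%, 33.2%, 37.4%, 38.5%, 39% and 39.6% at stages 2 to 12. All 7 also differed over the stages by the F test, which called 95.3% of tested genes and so sets no gene apart. The 4 markers of elongating spermatids summed to 269 to 1901 CPM at stage 3, against 13.4 to 53.5 at stage 1, and all 4 were called higher there; 6 of the 7 wells rich in them were in stage 3. Without these wells the log2 fold change of stage 3 against stage 1 went from -3.45 to -4.59 for Etv5 and from -4.91 to -7.81 for Tcl1, whose main value rests on 2 UMIs of mouse 1. The steps from stage 2 to stage 3 without them were -1.37 for Sall4, -1.71 for Egr4 and -0.90 for Uchl1 and stayed called (edgeR adjusted p = 8.30e-04, 0.00148 and 4.44e-04).

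**Figure D1:**
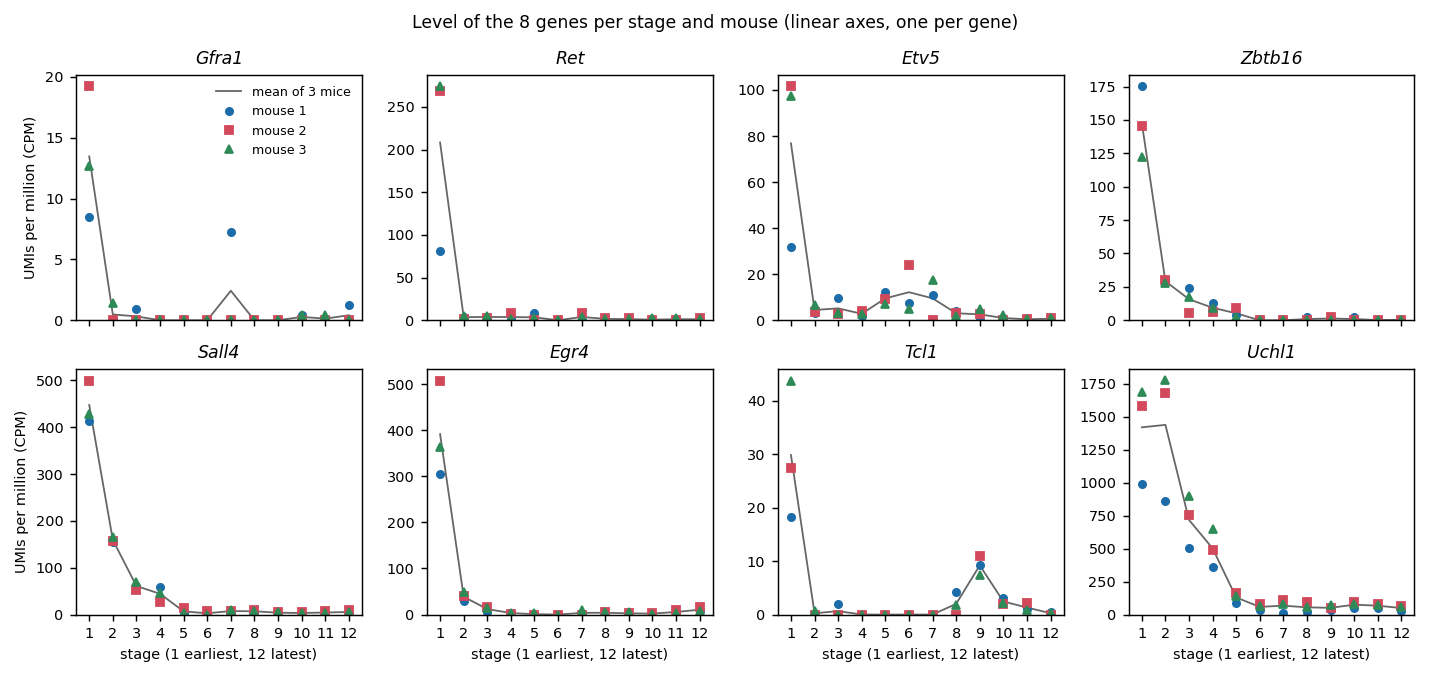
Level of each gene (CPM, linear axis of its own per panel) at stages 1 to 12, with 1 point per mouse and a line through the mean of 3 mice. Every gene but Uchl1 was highest at stage 1 in all 3 mice, and Tcl1 read 7.47 to 10.9 CPM at stage 9, against 0 to 4.16 CPM at stage 8.

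Among the receptor genes, Gfra1, the GDNF co-receptor, was the least abundant. It read 8.52, 19.2 and 12.6 CPM in mice 1, 2 and 3 at stage 1, on 7, 7 and 13 UMIs. At stage 2 the values were 0, 0 and 1.43 CPM, on 2 UMIs, so the groups did not overlap. Pooled over mice, the level at stage 2 was 0.0472 of that at stage 1 (exact 95% interval 0.00544 to 0.188, covering counting error only). No Gfra1 UMI was seen at stages 4, 5, 6, 8 or 9; against the level that 3 UMIs in the pooled stage would give, stage 1 was at least 7.34-fold higher than stage 4 and at least 10.9-fold higher than stage 9. Stage 6 was too shallow for a useful bound (at least 1.87-fold). At stage 7 there were 2 UMIs in 1 well of mouse 1, which made 7.28 CPM in that shallow sum, close to the 8.52 of the same mouse at stage 1; pooled, this was 0.241 of the stage 1 level (0.0278 to 0.959). The 5 UMIs at stage 12 all came from mouse 1, at 1.24 CPM.

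Ret, the kinase that GFRA1 engages, read 81.5, 269 and 274 CPM in mice 1, 2 and 3 at stage 1 and 3.89, 1.87 and 5.01 CPM at stage 2. Mouse 1 was low at stage 1 beside the other mice, and the lowest stage 1 value was still far above the highest at stage 2. The log2 fold change was -5.47 ± 0.43 (SE, n = 3 mice). After stage 2 no further step between neighbouring stages was called, and levels stayed between 0 and 8.19 CPM in every mouse. At stage 12 the values were 0.25, 2.12 and 1.21 CPM, with a log2 fold change against stage 1 of -7.03 ± 0.46. Within mouse 3 the gate-sorted library gave 203 CPM (13 wells) and the index-sorted library 367 CPM (19 wells) at stage 1, and 5.27 and 4.46 CPM at stage 2, so the fall was present in both.

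The transcription factors fell with different speeds. Etv5, an ETS-family factor that responds to GDNF, read 31.6, 102 and 97.3 CPM at stage 1 and 3.24, 3.74 and 6.44 CPM at stage 2, a log2 fold change of -3.88 ± 0.53. As for Ret, mouse 1 was the low one at stage 1, and the stages did not overlap. At stage 6 it read 7.69, 24.0 and 4.90 CPM, on 1, 3 and 1 UMIs; the step from stage 4 to stage 5 was not called (log2 fold change 1.66 ± 1.01, edgeR adjusted p = 0.225), and these values rest on too few UMIs to show a second rise. At stage 12 they were 0, 1.06 and 0.96 CPM, a log2 fold change of -6.26 ± 0.62 from stage 1.

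Egr4, an early growth response factor, was among the 3 leading genes of stage 1, although it took no part in the clustering. It read 304, 508 and 363 CPM at stage 1, then 28.5, 39.3 and 47.9 CPM at stage 2 and 4.81, 16.7 and 14.5 CPM at stage 3. Each of these steps separated the 3 mice without overlap, with log2 fold changes of -3.26 ± 0.25 from stage 1 to stage 2 (edgeR adjusted p = 2.24e-12) and -1.82 ± 0.37 from stage 2 to stage 3 (edgeR adjusted p = 7.19e-04). No Egr4 UMI was seen at stage 6, where stage 1 was at least 55.9-fold higher. In pachytene the level went from 1.18, 4.10 and 0.86 CPM at stage 10 to 4.04, 9.75 and 2.90 at stage 11 and 8.42, 15.9 and 7.23 at stage 12, higher at each step in 3 of 3 mice. Neither step was called (log2 fold changes 1.75 ± 0.59 with edgeR adjusted p = 0.102 and 1.07 ± 0.36 with edgeR adjusted p = 0.0573). The step from stage 11 to stage 12 was called with median-ratio size factors (adjusted p = 0.0435), with ERCC scaling (0.00508) and with no filter on low counts (0.0399), and that from stage 10 to stage 11 with no filter (0.0294). Neither step was called under the other settings in which it was tested. Of all tested genes, 2.6% were called higher from stage 10 to stage 11 and 5.09% from stage 11 to stage 12. The stage 12 mean was 2.69% of the stage 1 mean. Within mouse 3 at stage 12 the gate-sorted library gave 8.49 CPM (29 UMIs, 26 wells). The index-sorted library gave 1.36 CPM (1 UMI, 9 wells), so the late level of this mouse rests on the gate-sorted library.

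Zbtb16 read 175, 146 and 123 CPM at stage 1 and 29.8, 29.9 and 27.9 CPM at stage 2, a spread between mice far smaller than the step between stages (log2 fold change -2.32 ± 0.30, edgeR adjusted p = 4.45e-07). It went on to 24.1, 5.56 and 17.6 CPM at stage 3 and 13, 5.97 and 9.15 CPM at stage 4, but no single later step was called. At stages 6 and 7 no UMI was seen, which puts stage 1 at least 22.3-fold and 33.1-fold higher. At stage 12 it read 0.50, 0 and 0.48 CPM, a log2 fold change of -7.78 ± 0.47 from stage 1.

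Sall4 fell in steps. It read 414, 500 and 429 CPM at stage 1, 155, 157 and 166 CPM at stage 2, 60.7, 52.8 and 69.2 CPM at stage 3, 59.4, 27.8 and 45.8 CPM at stage 4, and 4.10, 13.9 and 2.33 CPM at stage 5. The mice did not overlap between stages 1 and 2, 2 and 3, or 4 and 5, and did between 3 and 4. The called steps were -1.44 ± 0.25 on the log2 scale from stage 1 to stage 2 (edgeR adjusted p = 2.63e-05), -1.33 ± 0.29 from stage 2 to stage 3 (edgeR adjusted p = 0.00123) and -2.99 ± 0.73 from stage 4 to stage 5 (edgeR adjusted p = 0.00189). From stage 2 to stage 3, Sall4, Egr4 and Uchl1 were the members called lower, beside 7.59% of tested genes, and from stage 4 to stage 5 Sall4 and Uchl1 were, beside 16.5%. Without mouse 3 the last step was -2.34 with an adjusted p of 0.109. At stage 12 Sall4 read 2.23, 9.55 and 4.58 CPM (log2 fold change from stage 1 -6.21 ± 0.35).

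**Figure D2:**
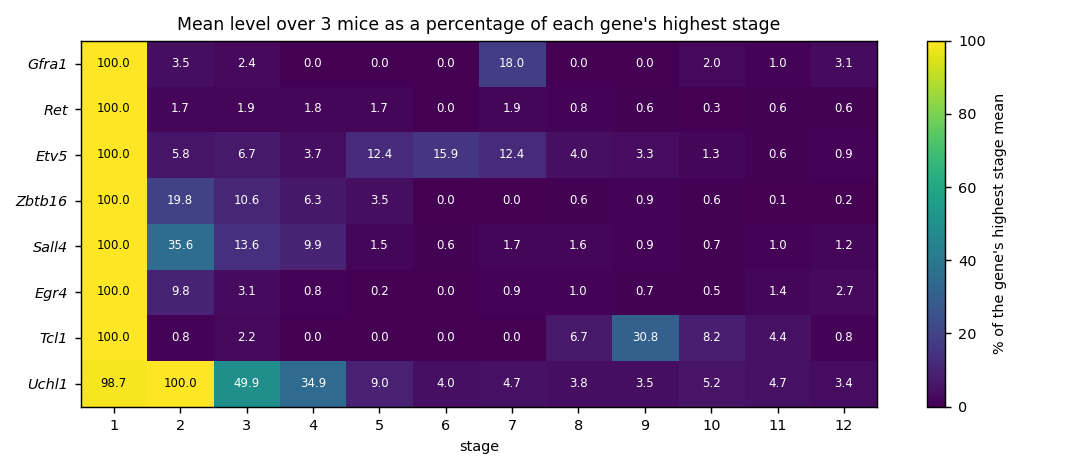
Mean level over 3 mice at each stage (columns) as a percentage of each gene's own highest stage mean (rows; colour scale 0 to 100%). Ret and Tcl1 were at or below 2% of their highest level at stage 2, Sall4 was at 35.6%, and Uchl1 was at its highest there.

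Tcl1, the AKT co-activator, read 18.3, 27.5 and 43.8 CPM at stage 1, on 15, 10 and 45 UMIs, and 0, 0 and 0.72 CPM at stage 2, on 1 UMI. The pooled level at stage 2 was 0.0091 of that at stage 1 (exact 95% counting interval 0.000227 to 0.0524). None of its UMIs fell in stages 4 to 7; by the 3-UMI floor stage 1 was at least 19.0-fold higher than stage 4 and at least 7.17-fold higher than stage 7. In early pachytene-like cells, stage 9, it read 9.23, 10.9 and 7.47 CPM, on 14, 4 and 6 UMIs, against 4.16, 0 and 1.82 CPM at stage 8 and 3.14, 2.05 and 2.16 CPM at stage 10. Stage 9 was above both neighbours in 3 of 3 mice without overlap, but stage 8 held only 3, 0 and 1 UMIs. In mouse 2 at stage 8, 3 UMIs would make 9.46 CPM, so its 0 is not clearly below its 10.9 at stage 9. The share of all genes that separate in this way is not given. From stage 8 to stage 9, 18% of tested genes were called higher. The difference from stage 8 missed the threshold (log2 fold change 1.92 ± 0.76, edgeR adjusted p = 0.0502); it was called with ERCC scaling (2.82, adjusted p = 0.0013), without doublets (0.0495) and without wells rich in spermatid markers (0.0412), and had an adjusted p of up to 0.255 under the other settings. The fall to stage 10 passed the threshold (-1.68 ± 0.59, edgeR adjusted p = 0.038), beside 8.79% of tested genes called lower at that step. That call was lost without mouse 1 (adjusted p = 0.185), without mouse 2 (0.159), with no filter on low counts (0.109), without the gate-sorted library (0.144), with no replicate block (0.228), with read counts (0.291) and with ERCC spike-ins as the scale, where the change was -0.60 (0.388). At stage 12, 3 UMIs were left, 0.0104 of the stage 1 level (0.00209 to 0.0317).

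Uchl1 was the exception to the early fall. It read 990, 1579 and 1692 CPM at stage 1 and 861, 1680 and 1776 CPM at stage 2, lower in mouse 1 and higher in mice 2 and 3. The difference was -0.00 ± 0.17 on the log2 scale (edgeR adjusted p = 1), within the spread between mice. It then read 504, 753 and 897 CPM at stage 3, 360, 493 and 652 at stage 4, 86.0, 162 and 140 at stage 5 and 30.8, 79.9 and 63.7 at stage 6. Within each mouse every one of these steps was downward. The steps to stage 3 (-0.95 ± 0.18, edgeR adjusted p = 3.58e-04), to stage 5 (-2.02 ± 0.23, edgeR adjusted p = 1.93e-08) and to stage 6 (-1.20 ± 0.36, edgeR adjusted p = 0.0324; 4.88% of tested genes called lower) were called, and that to stage 4 was not (-0.58 ± 0.19, edgeR adjusted p = 0.071). The step to stage 6 was lost when any single mouse was left out (adjusted p of 0.0931, 0.145 and 0.26 without mouse 1, 2 and 3), and under 4 other settings (adjusted p of 0.0504 to 0.294). From stage 6 on Uchl1 kept a level of 10.9 to 113 CPM in each mouse, with 27.0, 66.8 and 54.0 CPM at stage 12 and a log2 fold change from stage 1 of -4.45 ± 0.21.

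The share of wells with at least 1 UMI moved with depth as well as with the level. Egr4 had a UMI in 89.2% ± 5.35 (SD, n = 3) of stage 1 wells, 1.01% ± 1.75 of stage 5 wells and 53.0% ± 7.43 of stage 12 wells. When each well was thinned to 5000 UMIs the shares were 69.9%, 0% and 7.71%. The median well held 10327 UMIs at stage 5 and 96447 at stage 12. Uchl1 had a UMI in 97.4% ± 2.45 of stage 12 wells, and in 21.0% after thinning, against 100% at stage 1 after thinning. Sall4 was seen in 32.5% ± 14.6 of stage 12 wells, and in 0.952% after thinning. For Tcl1 the shares were 14.2% ± 1.87 at stage 9 and 3.92% after thinning.

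**Figure D3:**
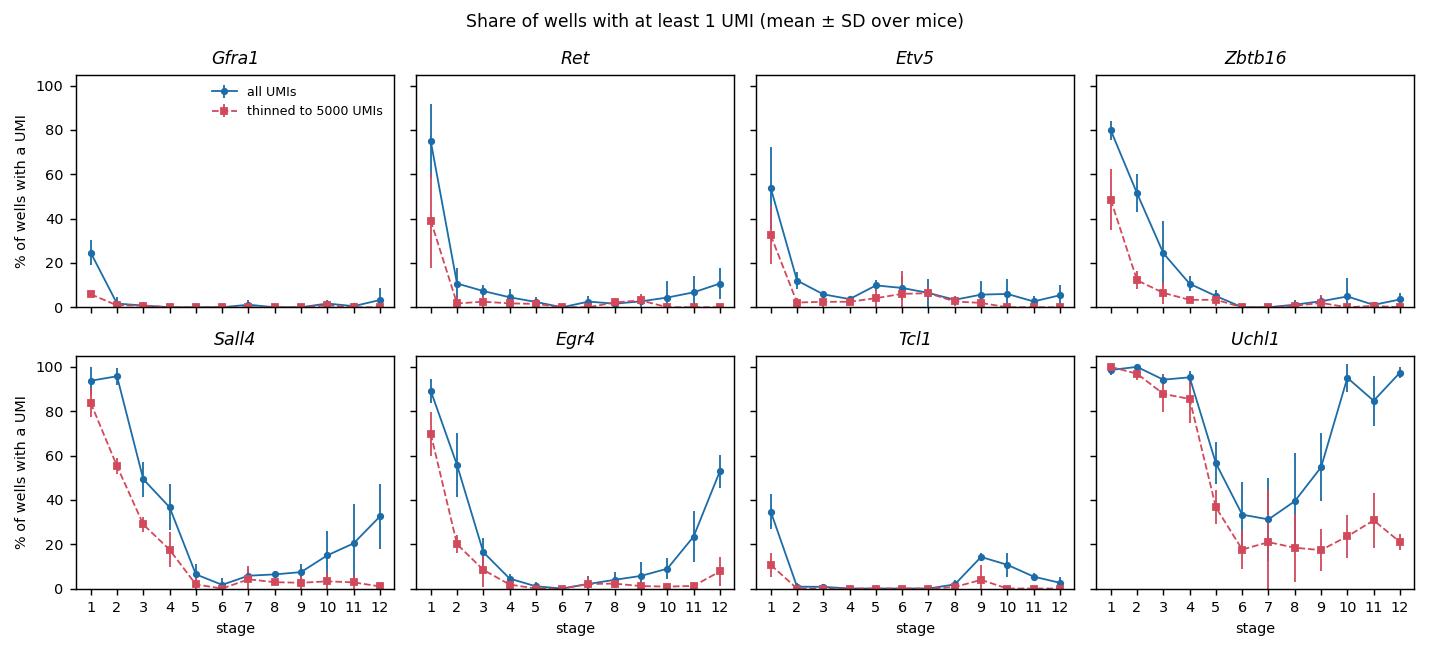
Percentage of wells with at least 1 UMI of each gene at stages 1 to 12 (mean ± SD over mice), with all UMIs (blue) and after thinning each well to 5000 UMIs (red, dashed; wells under that depth left out). The late increase of Egr4 to 53.0% and of Sall4 to 32.5% of wells at stage 12 fell to 7.71% and 0.952% after thinning.

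Within the 72 wells of stage 1 the genes were not seen evenly. Uchl1 had a UMI in 71 wells, Sall4 in 68, Egr4 in 64, Zbtb16 in 57, Ret in 56, Etv5 in 38, Tcl1 in 26 and Gfra1 in 17. In 10 wells all 8 genes had a UMI. The 17 wells with Gfra1 also had Ret in 16, Etv5 in 16, Tcl1 in 12 and Egr4 in 17, whereas of the 55 wells without a Gfra1 UMI 40 had Ret, 22 Etv5, 14 Tcl1 and 47 Egr4. Zbtb16, Sall4 and Uchl1 were seen in 15, 16 and 17 of the former wells and in 42, 52 and 54 of the latter. Sall4 and Uchl1 were thus seen in nearly all wells of both kinds. Median depth was 31581 UMIs in the former and 26884 in the latter, and wells of 1 mouse are not independent, so these counts are given as a description with no test. Single wells reached 62 UMIs of Ret, 87 of Sall4, 69 of Egr4 and 166 of Uchl1, but at most 4 of Gfra1.

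Of the EGR, ETV and SALL families, 4, 1 and 1 relatives were tested, and each was called lower at stage 2, beside 13.1% of all tested genes. All of them but Egr1 passed the filter through stage 1 alone, so these calls are a description too. Etv1, named after its values were seen, did not pass; it had no UMI at stage 1, 5 at stage 2 and 24 at stage 12 (2.79 ± 2.14 CPM). Egr1 went from 182 ± 73.5 CPM (mean ± SD, n = 3) at stage 1 to 14.8 ± 3.26 at stage 2 (log2 fold change -3.52 ± 0.32, edgeR adjusted p = 6.04e-11) and read 81.7 ± 31.2 at stage 7, where Egr4 read 3.54 ± 6.13. Egr2 and the EGR co-repressors Nab1 and Nab2 were also called lower at stage 2 (log2 fold changes -4.77, -2.72 and -4.21); Egr3 has no row. Egr1 and Egr2 are also early-response genes of many cell types. Etv4, the nearest relative of Etv5, fell from 42.3 ± 23.4 to 4.73 ± 2.77 CPM (log2 fold change -2.92 ± 0.51) and had no UMI at stage 12. Sall1 fell from 53.7 ± 12 to 11.4 ± 4.39 CPM (-2.13 ± 0.39). Each of these calls held at stage 12, and with ERCC spike-ins as the scale.

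In the UCH family other members rose while Uchl1 fell. Uchl3 had 38.3 ± 11.7 CPM at stage 1 and 127 ± 65.4 CPM at stage 12 (log2 fold change 2.17 ± 0.18, edgeR adjusted p = 1.25e-13) and Uchl5, a proteasome-bound hydrolase, from 96.7 ± 12.1 to 218 ± 10.9 CPM (1.67 ± 0.18). Uchl4 rose too (2.08 ± 0.35), but it is nearly identical to Uchl3 and the counting could split reads between them, so both values are uncertain. Bap1 was called lower (-0.35 ± 0.15, edgeR adjusted p = 0.0349), a direction that turned to 0.91 with ERCC scaling, and the call was lost with no filter (-0.12, adjusted p = 0.668). Around ZBTB16, Zbtb32 rose from 51.0 ± 10.5 CPM at stage 1 to 252 ± 62.9 at stage 9 and 212 ± 43.8 at stage 12 (2.60 ± 0.19). Zbtb7a was called higher at stage 12 (0.86 ± 0.32), a call lost with median-ratio size factors (0.53, adjusted p = 0.116). Zbtb7b, which passed the filter through stage 1 alone, and Zbtb20 were called lower (-2.96 ± 0.85 and -0.94 ± 0.34), and both calls were lost with ERCC scaling (-1.85 with an adjusted p of 0.0678, and 0.32 with 0.404).

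Around TCL1, its relative Mtcp1, an X-linked gene, read 10.9 ± 4.23 CPM at stage 1 and 121 ± 27.8 at stage 7, and had no UMI at stage 12. Thus Mtcp1 was high at stage 7, where Tcl1 had no UMI, and at 1.88 ± 2.71 CPM at stage 9, where Tcl1 read 9.19 ± 1.70. The AKT kinase gene Akt1 was higher at stage 2 (log2 fold change 0.63 ± 0.22) and lower at stage 12 (-4.34 ± 0.31). Akt2 was lower at stage 2 (-0.64 ± 0.19) and not called at stage 12 (0.38 ± 0.18, edgeR adjusted p = 0.0502). The stage 2 call of Akt1 was lost with median-ratio size factors (adjusted p = 0.0524) and that of Akt2 with ERCC scaling (0.112), while at stage 12 Akt2 was called higher with ERCC scaling (1.63) and with no filter (0.61). Of the GDNF family, Gfra4, the co-receptor of persephin, rose from 27.1 ± 12 to 66.8 ± 18.8 CPM (1.97 ± 0.33), Nrtn, the ligand neurturin, was higher at stage 2 (1.87 ± 0.43) and lower at stage 12 (-3.10 ± 0.63), and Ncam1 was not called (-0.35 ± 0.51). Gdnf itself, a product of somatic cells, had 9 UMIs in all staged wells.

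**Figure D4:**
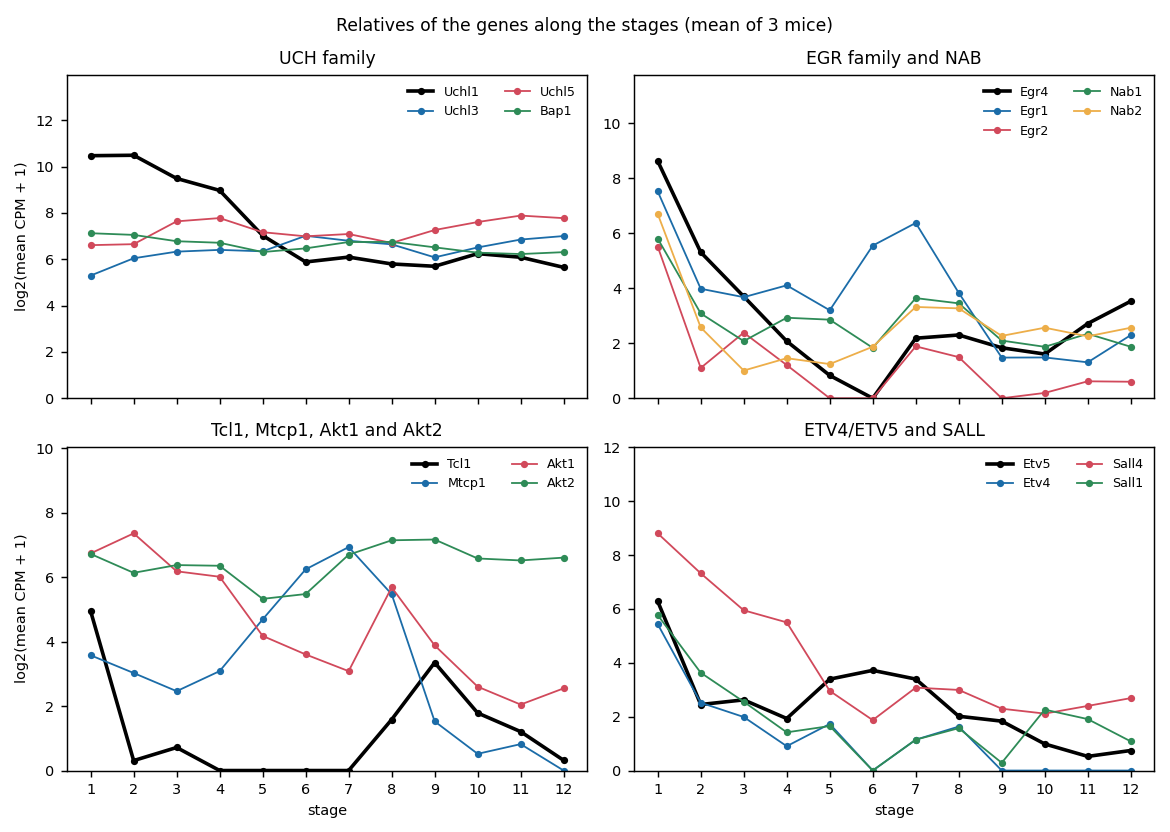
Mean level of 3 mice, as log2(CPM + 1), for selected genes of 4 families at stages 1 to 12; thick black lines mark Uchl1, Egr4, Tcl1 and Etv5. Uchl1 fell while Uchl3 and Uchl5 rose, and Mtcp1 read 121 CPM at stage 7, where Tcl1 had no UMI.

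Downstream of GFRA1 and RET, a list of 37 adaptors, kinases and feedback inhibitors held 30 tested genes. At stage 12 against stage 1, 14 were lower and 9 higher (39.6% and 36.7% of all tested genes), with a median log2 fold change of -0.50 against -0.07 over all tested genes. With ERCC scaling, which moved the median of all genes to 1.20, the list had 9 lower and 15 higher. Of all 5268 tested genes, 1225 were called lower and 3126 higher with that scaling. The feedback phosphatase Dusp6, a target of MAP kinase signalling, moved most, from 65.0 ± 41.2 CPM at stage 1 to 2.13 ± 1.52 at stage 2 (log2 fold change -4.79 ± 0.68) and 0.514 ± 0.531 at stage 12 (on 3 UMIs); it and Pik3r1 passed the filter through stage 1 alone. The SRC-family kinases Fyn and Src had log2 fold changes of -2.13 and -1.28 at stage 2 and of -6.22 and -4.18 at stage 12; the stage 2 call of Src was lost with ERCC scaling (adjusted p = 0.0685). For the PI3K subunit gene Pik3r1 these were -1.71 and -3.32. Map2k1 and the inhibitor Spred1 were not called at stage 2 (0.08 ± 0.18 and -0.58 ± 0.26) and had log2 fold changes of -3.11 and -2.92 at stage 12. All 6 kept their direction and call at stage 12 with ERCC scaling.

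Of 33 other genes tied to self-renewal, 22 were tested, and 16 were lower and 2 higher at stage 12 against stage 1 (39.6% and 36.7% of all tested genes), with a median of -3.72. With ERCC scaling these were 13 and 6, beside 1225 and 3126 of all 5268 tested genes. At stage 2 there were 10 lower and 5 higher (13.1% and 12.4% of all tested genes). The stage 2 counts with ERCC scaling were 6 and 5, beside 468 and 689 of all 5268 tested genes. Ccnd2, a cyclin of stem and early progenitor spermatogonia, went from 374 ± 133 to 29.9 ± 12.1 CPM at stage 2 (log2 fold change -3.51 ± 0.29, edgeR adjusted p = 1.05e-11). The surface gene Cd9 (-1.69), the oncogene Mycn (-0.70) and the glucocorticoid-responsive Tsc22d3 (-0.57) were also lower at stage 2, of which the calls of Mycn and Tsc22d3 were lost with ERCC scaling (adjusted p of 0.134 and 0.152), and Fgfr1, a receptor for fibroblast growth factors, was not called there (-0.78 ± 0.31, edgeR adjusted p = 0.0592; called with median-ratio size factors, 0.0339). Pou3f1, a POU-domain factor, was higher at stage 2, 138 ± 38.5 against 76.1 ± 29.8 CPM (0.93 ± 0.29), and read 0 at stage 5. At stage 12 all 6 were called lower, with log2 fold changes from -7.10 (Ccnd2) to -5.14 (Tsc22d3).

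Profiles over the 36 sums of mice and stages were most alike to Ret for Sdc4 (Pearson r = 0.90 of log2(CPM + 1) centred within mouse, 475 ± 119 CPM at stage 1), Gyltl1b (0.87) and Foxf1 (0.84). For Gfra1 these were Zfp462 (0.79), Foxf1 (0.77) and Ctdp1 (0.76), and for Egr4 Rbpms (0.86), Ccnd2 (0.86) and Lamb1 (0.85). Sall4 was followed most closely by Fkbp9 (0.93), Rcc2 (0.92) and Eif4ebp1 (0.92), Zbtb16 by Abca1, Ccdc6 and Epb4.1l4b (0.92, 0.92 and 0.91), and Uchl1 by Trnp1 (0.95), Eif4ebp1 (0.94) and Gars (0.94). Etv5 had Slc2a1 (0.79), Rps4x (0.79) and Foxo4 (0.78), and Tcl1 had Atp6v1b2 (0.80), Cct8 (0.77) and Cdk4 (0.75). These are the highest 3 of 4495 genes with a mean of at least 10 CPM. Only genes of X, Y, even-numbered autosomes and the lists were compared, so other genes may be more alike. The sums share their libraries and the course of depth, and no p is given.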

How the data were processed

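The authors deposited tables of UMI counts and of read counts per gene and well; per the submitters' processing notes, reads were mapped with BWA 0.7.10 and the build was mm10, while the counting tool and use of strand are not given in the sources used here. Members and gene lists were chosen with earlier results of these data known. Library size was the UMI count on autosomes, X and Y, without ERCC, mitochondrial, eGFP and Rn45s rows; total UMIs were 16682671, 5866174 and 18032562 in mice 1, 2 and 3. Columns of mouse 1 do not separate its 8 libraries. Wells with at least 1000 UMIs were staged from 1500 variable genes of odd-numbered autosomes, without any listed gene (Seurat 5.3.0 anchors over mice; scanpy 1.11.5, Leiden resolution 1.0). Clusters of at least 10 wells in at least 2 mice, with a median depth of at least 1/3 of that of all wells, were stages; 211 wells in 3 shallow clusters were left out. Scrublet called 11 wells doublets, which were kept. UMIs were summed per mouse and stage (36 sums) and tested with edgeR 4.0.16 (TMM, filterByExpr, mouse as a block, since each mouse gives every stage); tested genes were those of X, Y, even-numbered autosomes and the lists. Simulated data with 200 changed of 5268 genes, latest against earliest stage, gave 8 false calls and recovered 80.5% of the changed genes. The error rate of the calls in the real data was not measured. Genes named besides the 8 were their tested relatives, the 6 with the largest called change of each other list at stage 12, and the 3 most alike in profile; 1 relative is not reported here. Intervals and floors cover counting error only.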

Additional observations from a re-analysis of the deposited data

Results flagged for a closer look

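Uchl1 at stage 2 against stage 1 moved in opposite directions in the 2 protocols: the log2 ratio of CPM + 1 was -0.20 in mouse 1 (CEL-Seq1) and 0.0897 and 0.0699 in mice 2 and 3 (CEL-Seq2). The difference between protocols was not tested, and protocol and mouse cannot be told apart.

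UMIs of the genes were also seen in wells that no comparison used. The 472 wells under 1000 UMIs held 46 UMIs of Uchl1 and 9 of Sall4, above the 3 UMIs that a count of 0 allows. The 211 deeper wells outside the stages held 191 UMIs of Uchl1, 20 of Sall4, 9 of Zbtb16, 8 of Egr4 and 4 of Ret, with none of Gfra1 or Tcl1. In these 211 wells Uchl1 read 405, 455 and 321 CPM in mice 1, 2 and 3, between the values of the same mouse at stage 4 (360, 493 and 652) and stage 3 in mouse 1 and at stages 5 and 4 in mice 2 and 3. Groups of 3 mice were not checked for single outlying samples.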

How the results depend on the processing

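Under 18 alternatives, none of 378 fold changes of the 8 genes that could be computed reversed a call, 23 lost it and 7 gained it; every called fall at stage 12 stayed called wherever it was tested. Members called lower at stage 12 numbered 6 to 7 when a mouse was left out, since Tcl1 was not tested without mouse 3, and 8 with no filter, with reads or with no alignment across mice, where Gfra1 was tested. At stage 2 they numbered 5 to 6 when a mouse was left out (Tcl1 again), 5 with no replicate block (Sall4 adjusted p = 0.144), 4 with read counts (Sall4 0.108, Zbtb16 0.0669) and 7 with no filter or no alignment; no member was called higher in either comparison. Over all stages, 73 contrasts were called lower with no replicate block, against 76. The mouse as a block pairs stages of the same animal; without it, calls of steps between neighbouring stages were lost for Sall4, Egr4 and Uchl1 at stage 3 (adjusted p of 0.286, 0.198 and 0.357). ERCC spike-ins as the scale moved the median of all genes at stage 12 from -0.07 to 1.20 and the share of lower among all calls from 51.9% to 28.2%, and median-ratio size factors moved that share at stage 2 from 51.3% to 61.5% (40.4% with ERCC). The number of stages was 10, 16, 12 and 8 with Leiden resolution 0.6 and 1.5, even-numbered autosomes and no alignment; the last left mice 2 and 3. Leaving out 7 wells rich in spermatid markers was chosen after seeing the data, and left the counts of members called lower as they were, although Etv5 and Tcl1 at stage 3 moved from -3.45 to -4.59 and from -4.91 to -7.81. Shares of wells moved by more than the spread between mice in 23 of 24 comparisons with thinned wells.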
